A study of Mus musculus with 12 samples.

Results

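The glutathione, peroxiredoxin and NRF2 antioxidant genes are the enzymes that remove peroxides and superoxide, the enzymes that make and recycle glutathione and NADPH, and the regulators that control many of them. Members were taken by gene symbol from a list drawn up with earlier results of these data known, and 59 of the 18908 genes in both deposited tables matched. RNA sequencing was done on cultured mesenchymal stem cells (MSCs) of mouse bone marrow, the stromal cells that can form osteoblasts and adipocytes, grown in DMEM with serum. The labels give 3 groups, which are MSCs from young animals with vehicle (replicates 2, 4 and 5), MSCs from old animals with vehicle (6 libraries) and MSCs from old animals with melatonin at 1 µM for 24 h (replicates 1, 3 and 5). In the age table, young libraries stand against old vehicle replicates 2, 8 and 9. In the melatonin table, melatonin libraries stand against old vehicle replicates 1, 3 and 5. The treatment text of the labels is the same for all 12 samples, so groups follow the titles. Strain, sex and age in months are not in the labels. Nor is the animal behind each culture, and a p-value here therefore measures spread between libraries, which may be technical.

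NRF2, encoded by Nfe2l2, is held at a low level by KEAP1, which marks it for degradation until oxidants or electrophiles modify KEAP1. Freed NRF2 binds the antioxidant response element with a small MAF protein and drives genes for glutathione synthesis, thioredoxin reduction, NADPH supply and detoxification. Glutathione peroxidases and peroxiredoxins then reduce peroxides, with electrons that come from NADPH through glutathione or thioredoxin. In marrow stroma, oxidant load is known to bear on the choice between bone and fat formation, and macrophages, which make oxidants by NADPH oxidase, carry many of the same defence genes.

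The 59 genes took 0.419% to 1.06% of the counts of a library, out of totals between 20595378 and 21309663. Each library of the melatonin table was most like a library of the age table, by Pearson r of log2 CPM (counts over library size, scaled by TMM over all 12 libraries) over 13747 genes outside the member list. Old vehicle 1, 3 and 5 matched old vehicle 2, 8 and 9 at r = 0.994, 0.993 and 0.979, and the libraries labelled melatonin 1, 3 and 5 matched young 2, 4 and 5 at r = 0.990, 0.994 and 0.993. Within a group of 1 table r was 0.854 to 0.936. Counts of matched libraries differed by 1.77 to 6.18 times counting noise, against 25.3 to 40.1 times for the nearest library of the own group. The differences exceed counting noise and libraries were kept apart, but this does not show that matched libraries are separate samples. Each library labelled melatonin was thus closest, within the age table, to a young library, which goes against its age label. As every melatonin result rests on these libraries, none can be given without them. The second best matches of old vehicle 1, melatonin 1 and old vehicle 3, at r = 0.956, 0.951 and 0.938, also exceeded every r within a group of 1 table. Whether matched libraries share a culture was not tested, so likeness between the comparisons below supports neither. All 20 macrophage markers had counts, and their summed level was 84.4 to 1005 CPM in young and 1158 to 22550 CPM in old libraries of the age table. In the melatonin table it was 136 to 1051 CPM in libraries labelled melatonin and 1251 to 24760 CPM in old vehicle libraries, and 1 marker was at 0 in melatonin replicate 3. Old vehicle replicates 8, 9, 3 and 5 were the rich ones, at 17870 CPM or more, while replicates 2 and 1 were at 1158 and 1251 CPM. The 12 stromal markers summed to 12200 to 53650 CPM in young against 7021 to 15850 CPM in old libraries, and to 12050 to 52070 CPM with melatonin against 6610 to 16250 CPM with vehicle, with 1 at 0 in melatonin 5. A sum is weighted to the most abundant markers. Their mean log2 CPM overlapped between groups, at 7.74, 7.02 and 8.03 in young 2, 4 and 5 and 8.08, 6.79 and 7.38 in old 2, 8 and 9. In the melatonin table it was 8.13, 6.84 and 7.13 in old vehicle 1, 3 and 5. It was 7.85, 7.10 and 7.86 in melatonin 1, 3 and 5. The part of stromal markers in the results was not tested. Neutrophil, red cell and B cell markers summed to at most 7.22, 0.632 and 2.12 CPM, with 4 of 6 red cell markers in the tables. Endothelial markers summed to between 5.5 CPM in young 5 and 62.2 CPM in melatonin 1.

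No antioxidant gene passed the test between old and young libraries, and 12 had an unadjusted p under 0.05, each with the higher mean in old libraries. They were the peroxiredoxin genes Prdx6, Prdx5 and Prdx1, the peroxidase genes Gpx1 and Gpx3, catalase (Cat), the NADPH enzymes G6pdx and Pgd, Sod2, Mgst1, Gsta3 and Nfe2l2. None of the 51 tested members passed in edgeR at an adjusted p under 0.05, as was true of 0% of all 13547 genes, and the smallest adjusted p among members was 0.315. At an unadjusted p under 0.05, 12 of 51 members were higher in old libraries (23.5%), beside 8.81% of all genes, and 0 were lower, beside 4.95% of all genes. Old and young libraries did not overlap, with old higher, for 8 members (15.7%) beside 9.28% of all genes, and with old lower for 0 members beside 9.23%. The median log2 change was 0.34 over tested members and -0.025 over all tested genes. DESeq2, used as an alternative, called 6 members (Prdx6, Gpx1, Gpx3, Cat, G6pdx and Gsta3) and 868 genes in all. The other 8 members are outside these counts because they failed the filter on low counts, and they are described with the glutathione transferases and peroxidases.

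The comparison with melatonin also gave no member past the test, and 14 had an unadjusted p under 0.05, each with the lower mean in libraries labelled melatonin. They were Prdx6, Prdx5, Prdx1, Gpx1, Gpx3, Cat, G6pdx, Pgd, Mgst1, Mgst3, Gclm, Gsta3, Gstt3 and Nfe2l2. Again 0 of 51 tested members passed in edgeR, as did 0% of 13471 genes, with a smallest adjusted p of 0.286. Those 14 members were lower at an unadjusted p under 0.05 (27.5%), beside 9.45% of all genes, and 0 were higher, beside 4.76%. The groups did not overlap, with melatonin lower, for 12 members (23.5%) beside 9.78% of all genes, and with melatonin higher for 0 members beside 9.09%. The median log2 change, as melatonin minus vehicle, was -0.30 over members and 0.020 over all genes. DESeq2 called 5 members (Prdx6, Gpx3, Cat, G6pdx and Gsta3) of 895 genes in all. In bulk samples, fewer cells of a type and less RNA per cell cannot be told apart. The heat map of levels shows both patterns by library, and the plot of changes gives every tested member.

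**Figure D1:**
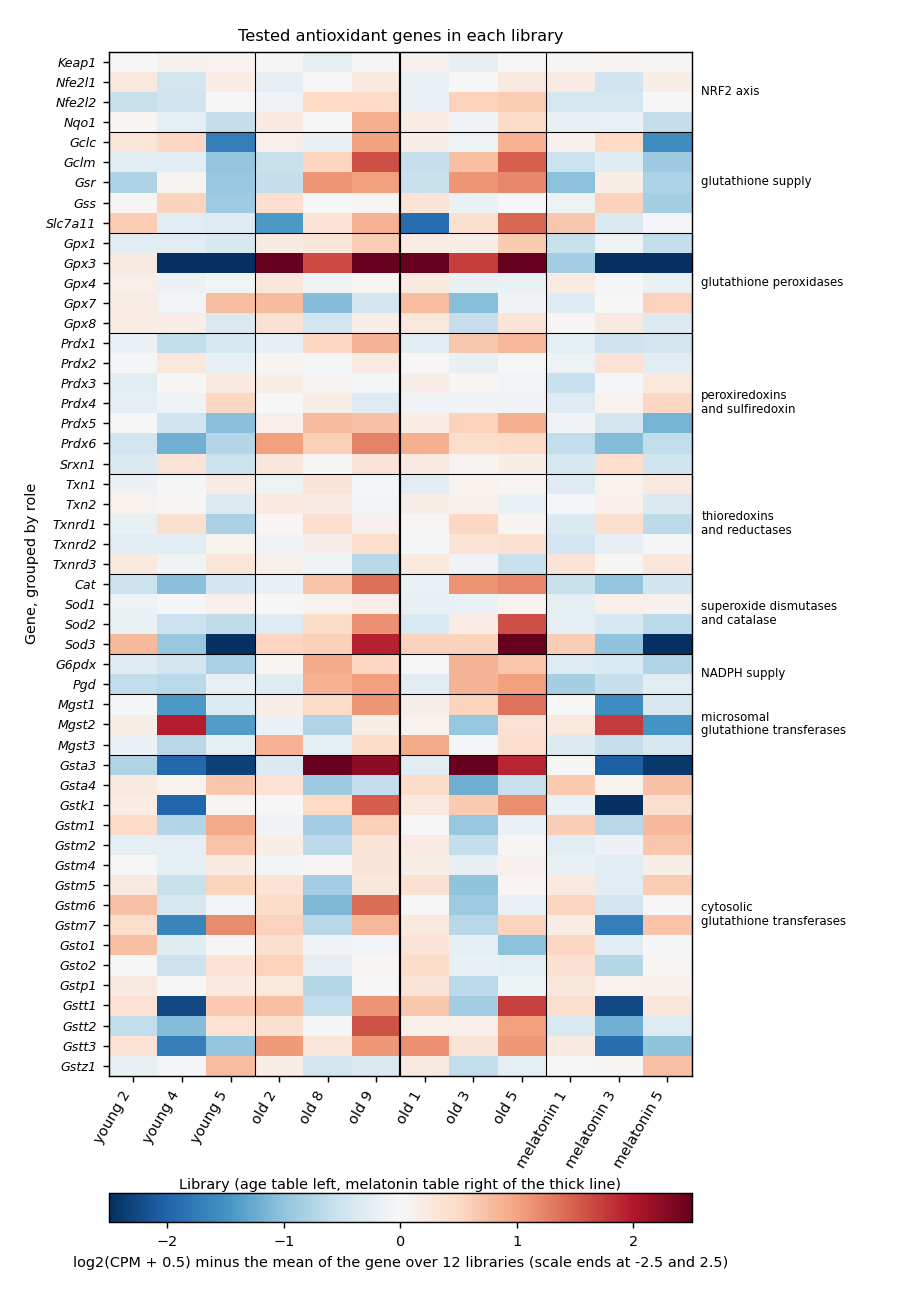
Levels of the 51 tested antioxidant genes (rows, by role) in 12 libraries (columns), as log2(CPM + 0.5) minus the mean of the gene, with red above and blue below that mean. Prdx6 is red in all 6 old vehicle libraries, while Gclm, Gsr, Cat and Pgd are reddest in old vehicle 8, 9, 3 and 5 and not in 2 and 1.

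**Figure D2:**
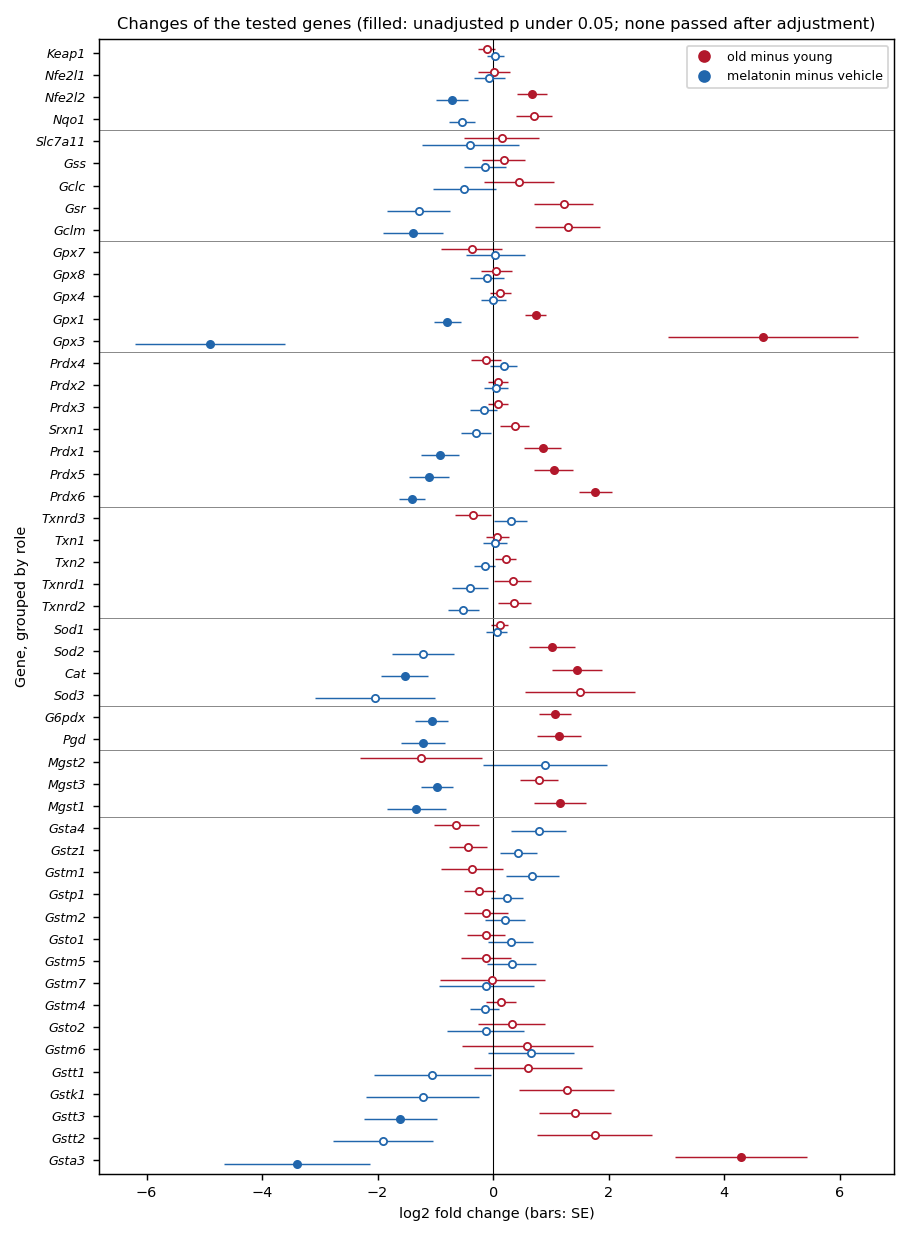
Log2 fold changes of the 51 tested genes with their SE, as old minus young (red) and as labelled melatonin minus old vehicle (blue), with n = 3 libraries per group. Filled points have an unadjusted p under 0.05, which were 12 members in the age and 14 in the melatonin comparison, and none passed after adjustment.

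The macrophage markers moved with these counts, and their part in them was not tested. With old vehicle replicates 8 and 9 left out, only a lone old library remains. The median log2 change of the 51 members was then 0.20, beside 0.34 with all libraries, and that of all genes was -0.058. Without old vehicle replicates 3 and 5 a lone vehicle library remains too. The median with melatonin was then -0.24 over the 51 members, beside -0.30 with all libraries, and 0.058 over all genes. Prdx6, Mgst3 and Gpx3 had age changes of 1.80, 1.22 and 4.36 without the macrophage-rich libraries, beside 1.77, 0.79 and 4.67 with them. By contrast, Gclm and Gsr came to log2 changes of -0.092 and -0.11 in the age comparison, and Gsta3 went from 4.29 to 1.5. The plot of changes with and without those libraries sets all members side by side.

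**Figure D3:**
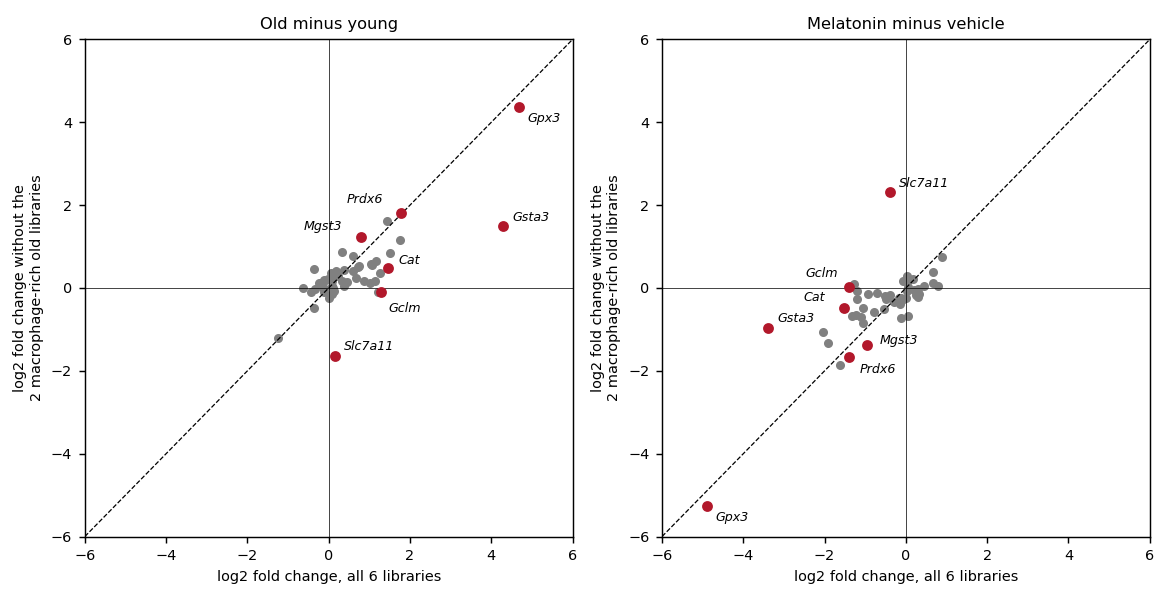
Log2 fold change of each tested gene with all 6 libraries (x axis) against that without the macrophage-rich old vehicle libraries (y axis), replicates 8 and 9 on the left and 3 and 5 on the right, where the dashed line marks equal values. Prdx6 lies on the line at left (1.77 and 1.80), Gclm falls to near 0 in both panels, and Slc7a11 takes the other sign in both.

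Among the regulators, Nfe2l2, the gene of NRF2, was at 107, 111 and 159.5 CPM in young 2, 4 and 5 and at 149, 222 and 219 CPM in old vehicle 2, 8 and 9. Young 5 lay above old 2, so the groups overlapped, and the log2 change was 0.67 ± 0.26 (adjusted p = 0.345). It was 140.4, 236 and 243 CPM in old vehicle 1, 3 and 5 and 116, 116 and 156 CPM in libraries labelled melatonin 1, 3 and 5, a log2 change of -0.71 ± 0.28 (adjusted p = 0.341). The higher values in each old group were those of the macrophage-rich libraries, and without them the changes were 0.24 and -0.13. Keap1 stayed within 61.0 to 77.1 CPM over all 12 libraries, the narrowest relative range of any tested member, with log2 changes of -0.11 ± 0.14 and 0.038 ± 0.15. Nfe2l1, which encodes the related factor NRF1, ranged from 259.5 to 444 CPM and had changes of 0.011 ± 0.27 and -0.065 ± 0.27. Nqo1, a quinone reductase gene that is a standard NRF2 target, was at 37.5, 30.3 and 23.8 CPM in young and 43.2, 36.4 and 68.5 CPM in old libraries (log2 change 0.71 ± 0.31 (adjusted p = 0.377)), where old 8 lay below young 2. Without old 9 that change was 0.39. With melatonin as the comparison Nqo1 was 41.4, 33.9 and 50.1 CPM with vehicle and 31.8, 32.4 and 23.7 CPM in libraries labelled melatonin (-0.55 ± 0.22 (adjusted p = 0.353)), with no overlap.

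NRF2 acts through the antioxidant response element, whose core TGACNNNGC was searched on both strands from 250 bases before to 50 bases after each start site in RefSeq promoters of build GRCm38.p6, another build than the mm39 that the submitters' processing notes name. Promoters were held for 53 of the 59 members, and not for Prdx6, Gclc, Gsr, Gsta4, Gstt2 and Sod3, which were not searched. The core was found for 12 of the 53 (22.6%), against 14.0% of all genes, or in 16.7% of 72 member windows and 12.4% of all windows. It is printed for the 9 of these whose values are described here, in capitals with 10 bases on each side and in the direction that reads TGAC first.
Nfe2l2 (chr2:75704885-75704913, minus strand): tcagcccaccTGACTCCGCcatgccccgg
Gclm (chr3:122245413-122245441, minus strand): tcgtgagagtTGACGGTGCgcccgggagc
Prdx1 (chr4:116685456-116685484, minus strand): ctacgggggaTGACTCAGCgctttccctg
Txnrd1 (chr10:82859104-82859132, minus strand): cgtgtcagaaTGACAAAGCaaaaatccag
Srxn1 (chr2:152105542-152105570, minus strand): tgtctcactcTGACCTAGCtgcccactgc
G6pdx (chrX:74428919-74428947, plus strand): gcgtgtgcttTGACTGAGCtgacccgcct
Pgd (chr4:149166061-149166089, minus strand): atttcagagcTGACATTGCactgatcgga
Mgst1 (chr6:138140461-138140489, minus strand): ccccgcctccTGACCGTGCcaagccccgc
Gsta3 (chr1:21240454-21240482, plus strand): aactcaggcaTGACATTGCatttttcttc
The other 3 members with the core were Gstm5, Gstm7 and Sod1. Pgd, Txnrd1, Mgst1 and Gstm7 also had windows at other start sites without a match. The window of Nqo1 held no match. The matches of Pgd and Srxn1 began 3 and 28 bases after the start site, and the others began before it. The Prdx1 match also holds TGACTCA, letters of the AP-1 site that overlap the element, and none of the other 11 matches does within its 10 flanking bases. Over the whole window, TGACTCA or TGAGTCA stood in 3 of the 12 (those of Prdx1, Srxn1 and Gstm5), in 8.33% of the 72 member windows and in 5.20% of all windows. A match is a description of letters and not a binding site. The 12 genes ranged in their age change from -0.12 for Gstm5 to 4.29 for Gsta3.

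Among the glutathione supply genes, Gclm and Gsr were highest in the macrophage-rich libraries, whose part was not tested. The changes of Gclc, Slc7a11 and Gss were smaller than their SE in both comparisons. Gclm, the modifier subunit of the rate-limiting ligase, was at 69.5, 68.5 and 41.9 CPM in young and 56.3, 120.1 and 256 CPM in old libraries, and at 55.2, 141 and 234 CPM in old vehicle and 57.3, 67.4 and 43.9 CPM in libraries labelled melatonin. Old 2 and old 1 lay within the range of the other groups, and only the macrophage-rich libraries stood above it. Its log2 changes were 1.29 ± 0.56 (adjusted p = 0.375) and -1.39 ± 0.52 (adjusted p = 0.327), and came to 0.57 without old 9 alone and -0.82 without old 5 alone. Gsr, which regenerates reduced glutathione, had the same arrangement, with 32.1, 105 and 99.8 CPM in old against 28.1, 51.1 and 24.9 CPM in young libraries (1.22 ± 0.51 (adjusted p = 0.366)) and 32.9, 105 and 112 CPM against 23.7, 54.4 and 27.9 CPM in the melatonin table (-1.29 ± 0.54 (adjusted p = 0.360)). Gclc, the catalytic subunit, did not follow Gclm. It was 161, 186 and 39.3 CPM in young and 143, 115 and 261 CPM in old libraries (0.45 ± 0.61 (adjusted p = 0.752)), and 148, 120.0 and 239.5 CPM with vehicle and 142, 184 and 44.2 CPM with melatonin (-0.50 ± 0.54 (adjusted p = 0.690)). The lowest 2 of its 12 values were those of young 5 and melatonin 5. Slc7a11, the cystine importer subunit xCT, was lowest in old 2 and old 1, with 3.06, 11.6 and 16.9 CPM in old vehicle 2, 8 and 9 and 2.04, 12.2 and 25.2 CPM in 1, 3 and 5. It was 14.3, 7.34 and 7.11 CPM in young libraries and 14.8, 6.98 and 8.87 CPM in those labelled melatonin. Its changes were 0.15 ± 0.65 and -0.39 ± 0.84, and they turned to -1.64 and 2.32 without the macrophage-rich libraries. Glutathione synthetase (Gss) had 0.18 ± 0.37 and -0.14 ± 0.37.

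Of the glutathione peroxidases, Gpx1, the abundant cytosolic enzyme, was at 279, 279 and 255 CPM in young and 393, 416 and 523 CPM in old libraries. The lowest old library was 1.41 times the highest young library, and the log2 change was 0.73 ± 0.19 (adjusted p = 0.315). In the melatonin table Gpx1 was 382, 379 and 534 CPM with vehicle and 228, 316 and 224 CPM in libraries labelled melatonin (-0.79 ± 0.24 (adjusted p = 0.286)), again without overlap. Without the macrophage-rich libraries the changes were 0.54 and -0.59. Gpx3, the secreted peroxidase of plasma, had the widest range of any tested member, from 1.72 to 2602 CPM. Young 2, 4 and 5 were at 139, 18.0 and 1.72 CPM, and old 2, 8 and 9 at 1099, 371 and 2602 CPM (log2 change 4.67 ± 1.65 (adjusted p = 0.319)). The young libraries themselves were far apart, yet the lowest old library was 2.66 times the highest young one. Vehicle libraries of the melatonin table were at 1138, 396 and 1072 CPM and libraries labelled melatonin at 66.2, 20.1 and 1.76 CPM (-4.90 ± 1.30 (adjusted p = 0.286)). Among old libraries Gpx3 was lowest in replicates 8 and 3 and highest in replicate 9, all 3 rich in macrophage markers, and without the rich libraries its changes were 4.36 and -5.27. Leaving out young 2 alone gave 7.16 with age. Adipocyte markers, of which 4 of 5 were in the tables, summed to 29.5 to 84.7 CPM in old and 10.5 to 38.1 CPM in young libraries, and to 25.4 to 96.2 CPM with vehicle and 10.5 to 39.0 CPM with melatonin. All 4 had counts in every old vehicle library, while 1 to 3 of them were at 0 in each young and melatonin library, and their part in the Gpx3 difference was not tested. Gpx4, which reduces lipid peroxides in membranes, stayed at 265 to 364 CPM, with changes of 0.13 ± 0.19 and 0.006 ± 0.21. The endoplasmic reticulum members Gpx7 and Gpx8 differed by -0.37 ± 0.53 and 0.056 ± 0.27 with age and by 0.041 ± 0.50 and -0.10 ± 0.29 with melatonin. Gpx2 had at most 2 counts in a library and Gpx6 had 1 count in 1 library, so neither was tested.

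Peroxiredoxins gave the member with the smallest p in both comparisons. Prdx6, which reduces peroxides of phospholipids with glutathione and a single catalytic cysteine, was at 121, 73.2 and 102 CPM in young and 344, 257 and 403 CPM in old libraries. Each old library was at least 2.12 times the highest young library, and the log2 change was 1.77 ± 0.29 (adjusted p = 0.315), with an unadjusted p of 0.000727. It was 318, 231 and 238 CPM in old vehicle 1, 3 and 5 and 111, 80.2 and 111 CPM in libraries labelled melatonin, a log2 change of -1.40 ± 0.23 (adjusted p = 0.286) with an unadjusted p of 0.000869. Old 2 and old 1, which are poor in macrophage markers, were as high as the others, and without the macrophage-rich libraries the changes were 1.80 and -1.67. As single libraries were left out, the age change ran from 1.59 to 1.96 and the melatonin change from -1.5 to -1.25.

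Prdx5, found in mitochondria, peroxisomes and cytosol, was 206, 147 and 99.6 CPM in young and 227, 357 and 343 CPM in old libraries (1.05 ± 0.34 (adjusted p = 0.315)), without overlap. Its melatonin table values were 234, 309 and 382 CPM with vehicle and 196, 150.2 and 91.7 CPM in libraries labelled melatonin (-1.11 ± 0.35 (adjusted p = 0.286)). Its highest values were those of the macrophage-rich libraries, and without them the changes were 0.59 and -0.69. Prdx1, the main cytosolic peroxiredoxin and an NRF2 target, was 392, 282 and 318 CPM in young and 373, 618 and 783 CPM in old libraries (0.86 ± 0.33 (adjusted p = 0.340)), with young 2 above old 2. It was 360.3, 692 and 772 CPM with vehicle and 365, 302 and 316 CPM in libraries labelled melatonin (-0.92 ± 0.33 (adjusted p = 0.318)), with melatonin 1 above old 1. For Prdx1 the high values were those of the macrophage-rich libraries, and without them its changes were 0.17 and -0.15. The cytosolic Prdx2, mitochondrial Prdx3 and endoplasmic reticulum Prdx4 differed by 0.088 ± 0.18, 0.089 ± 0.18 and -0.12 ± 0.26 with age, and by 0.051 ± 0.20, -0.16 ± 0.23 and 0.18 ± 0.23 with melatonin. Srxn1, which repairs overoxidised peroxiredoxins and is an NRF2 target, was 86.6, 140.2 and 77.0 CPM in young and 136, 113 and 139 CPM in old libraries (0.38 ± 0.25 (adjusted p = 0.521)), and 130.5, 118 and 123 CPM with vehicle and 82.2, 150.2 and 78.8 CPM with melatonin (-0.30 ± 0.27 (adjusted p = 0.622)). The highest of its values were in young 4 and melatonin 3, so the groups overlapped in both tables.

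**Figure D4:**
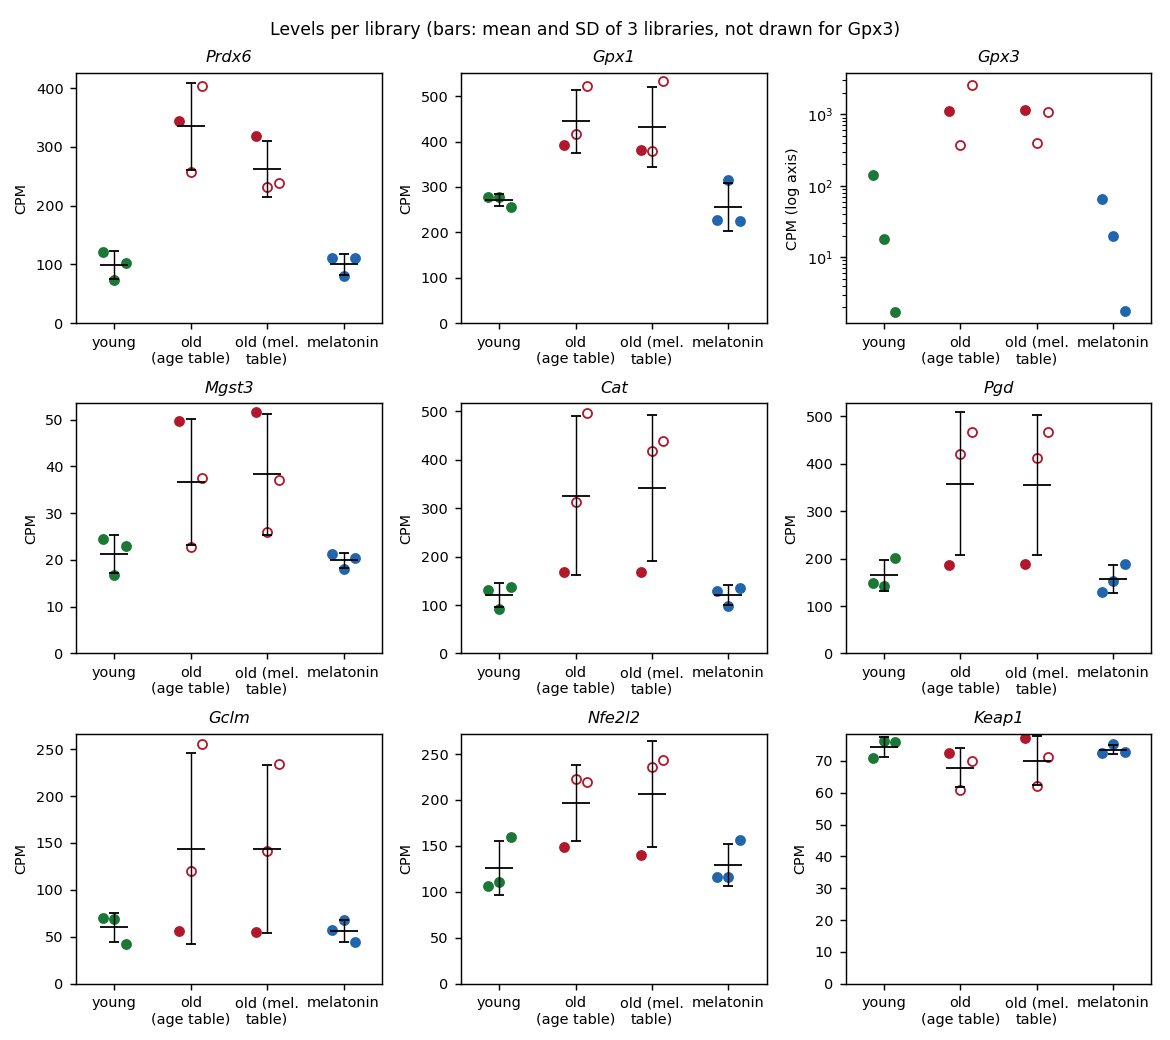
CPM of 9 genes in each library, by group, with the mean and SD of 3 libraries (not drawn for Gpx3, which has a log axis). Open symbols are the macrophage-rich old vehicle replicates 8, 9, 3 and 5. Every old vehicle library lies above every young and melatonin library for Prdx6, Gpx1, Gpx3 and Cat, the filled old symbols of Gclm lie among the other groups, and Keap1 is level.

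The thioredoxin branch showed small differences. Thioredoxin reductase Txnrd1, the cytosolic selenoprotein and NRF2 target, was 186, 280.4 and 121 CPM in young and 219.8, 281 and 228 CPM in old libraries (0.34 ± 0.31 (adjusted p = 0.653)), where young 4 lay above old 2 and 9. With vehicle and melatonin it was 216, 304 and 223 and 166, 280.0 and 134 CPM (-0.40 ± 0.31 (adjusted p = 0.571)). The mitochondrial reductase Txnrd2 was 6.59, 6.63 and 8.53 CPM in young and 7.49, 9.05 and 11.1 CPM in old libraries (0.37 ± 0.29 (adjusted p = 0.587)), and 7.74, 10.3 and 10.6 and 5.63, 6.91 and 7.89 CPM with vehicle and melatonin (-0.52 ± 0.27 (adjusted p = 0.431)). Its partner Txn2, the mitochondrial thioredoxin, was 127, 121 and 92.8 CPM in young and 139.7, 137 and 114 CPM in old libraries, a change of 0.22 ± 0.19. In the melatonin table it was 132, 128 and 105 and 117, 129 and 92.0 CPM, a change of -0.15 ± 0.18. The groups overlapped for each of these 3 genes in both tables. Txn1, the cytosolic thioredoxin, had 0.075 ± 0.20 and 0.028 ± 0.21, and Txnrd3 had -0.34 ± 0.31 and 0.30 ± 0.29.

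Catalase (Cat), which splits hydrogen peroxide in peroxisomes, was 132, 92.6 and 137 CPM in young and 168, 313 and 496 CPM in old libraries (1.45 ± 0.43 (adjusted p = 0.315)). It was 169, 418 and 439 CPM with vehicle and 129.6, 97.7 and 135 CPM in libraries labelled melatonin (-1.53 ± 0.41 (adjusted p = 0.286)). The groups did not overlap in either table, but old 2 and old 1 were much nearer to the young and melatonin values than the macrophage-rich libraries were, and without those the changes were 0.48 and -0.49. Sod2, the mitochondrial superoxide dismutase, was 54.5, 42.0 and 39.3 CPM in young and 49.2, 84.4 and 138 CPM in old libraries (1.02 ± 0.39 (adjusted p = 0.347)), with old 2 inside the young range. It was 47.3, 69.7 and 189 CPM with vehicle and 51.8, 46.2 and 38.4 CPM with melatonin (-1.21 ± 0.54 (adjusted p = 0.379)), with old 1 inside the melatonin range. The Sod2 changes were 0.12 and -0.065 without the macrophage-rich libraries, 0.57 without old 9 alone and -0.38 without old 5 alone. Sod1, the cytosolic enzyme, stayed at 117 to 155 CPM in all 12 libraries, with changes of 0.11 ± 0.15 and 0.059 ± 0.18. Sod3, the extracellular enzyme, ranged from 12.8 to 659 CPM and differed by 1.51 ± 0.95 and -2.04 ± 1.04, with young 2 at 202 CPM above old 2 at 167 CPM.

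Neither NADPH enzyme of the pentose phosphate pathway passed the test. G6pdx, the entry enzyme, was 132, 118 and 92.5 CPM in young and 168, 308 and 233 CPM in old libraries (1.07 ± 0.28 (adjusted p = 0.315)), without overlap. With vehicle and melatonin it was 162, 293 and 262 and 131, 124 and 95.7 CPM (-1.07 ± 0.28 (adjusted p = 0.286)), again without overlap. Pgd, the next dehydrogenase to form NADPH, was 149, 143 and 201 CPM in young and 186, 419.6 and 466 CPM in old libraries (1.14 ± 0.38 (adjusted p = 0.315)), with young 5 above old 2. With vehicle and melatonin Pgd was 188, 412 and 467 and 129, 154 and 189 CPM (-1.21 ± 0.38 (adjusted p = 0.286)), where old 1 and melatonin 5 were so close that their order differs between scaling within the table and over all 12 libraries. Both were highest in macrophage-rich libraries, and without these G6pdx differed by 0.56 and -0.48 and Pgd by 0.18 and -0.27.

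Among the microsomal glutathione transferases, Mgst3, a membrane enzyme that also reduces lipid hydroperoxides, was 24.4, 16.7 and 22.9 CPM in young and 49.7, 22.7 and 37.6 CPM in old libraries (0.79 ± 0.33 (adjusted p = 0.367)), with old 8 below young 2 and 5. Without old 2 that change was 0.52. It was 51.7, 26.0 and 37.1 CPM with vehicle and 21.2, 18.1 and 20.5 CPM in libraries labelled melatonin (-0.97 ± 0.28 (adjusted p = 0.286)). Its highest values were in old 2 and old 1, which are poor in macrophage markers, and without the macrophage-rich libraries the changes were 1.22 and -1.38. Mgst1, of the endoplasmic reticulum and outer mitochondrial membrane, was 49.9, 18.7 and 40.6 CPM in young and 57.3, 72.3 and 112 CPM in old libraries (1.16 ± 0.44 (adjusted p = 0.342)), and 57.2, 76.7 and 133 CPM with vehicle and 51.8, 17.4 and 38.8 CPM with melatonin (-1.33 ± 0.51 (adjusted p = 0.334)), without overlap in either table. Without the macrophage-rich libraries the Mgst1 changes were 0.65 and -0.67. Mgst2 was highest in young 4 and melatonin 3, at 7.75 and 6.66 CPM, against 2.25 CPM or less in the other 10 libraries, and its changes were -1.25 ± 1.05 and 0.90 ± 1.07.

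The 22 glutathione transferases outside the microsomal group, Gstk1 included, which conjugate glutathione to electrophiles, showed no shared direction. Of the 16 tested, 8 were higher and 8 lower in old libraries, with a median log2 change of 0.062, and 8 were higher and 8 lower with melatonin, with a median of 0.044. Gsta3, of the alpha class, was the exception in size. It was 2.05, 0.596 and 0.353 CPM in young and 2.84, 36.0 and 19.8 CPM in old libraries (4.29 ± 1.14 (adjusted p = 0.315)), and 3.09, 31.3 and 15.5 CPM with vehicle and 3.90, 0.540 and 0.302 CPM with melatonin (-3.39 ± 1.26 (adjusted p = 0.327)). Its high values were in the macrophage-rich libraries alone, and melatonin 1 lay above old 1. Without melatonin 1 the melatonin change was -5.31. Gstt3, of the theta class, was 14.9, 3.12 and 5.60 CPM in young and 24.3, 14.2 and 24.8 CPM in old libraries (1.42 ± 0.62 (adjusted p = 0.378)), with old 8 just below young 2. It was 25.9, 14.4 and 24.7 CPM with vehicle and 13.4, 2.71 and 5.39 CPM with melatonin (-1.61 ± 0.63 (adjusted p = 0.341)), without overlap. Its changes were 1.62 and -1.86 without the macrophage-rich libraries, 2.30 without young 2 and -2.46 without melatonin 1. The abundant pi and mu class genes Gstp1, Gstm1 and Gstm2 differed by -0.24 ± 0.27, -0.37 ± 0.53 and -0.13 ± 0.38 with age and by 0.24 ± 0.27, 0.68 ± 0.46 and 0.21 ± 0.34 with melatonin. Gsta4, which clears the lipid peroxidation product hydroxynonenal, was the lowest of the 16 with age, at -0.64 ± 0.39, and had 0.79 ± 0.47 with melatonin. Gstt2, a low theta class gene, was 0.318, 0.0917 and 1.11 CPM in young and 1.14, 0.704 and 3.25 CPM in old libraries (1.76 ± 1.00), with old 2 just above and old 8 below young 5. It was 0.855, 0.860 and 2.06 CPM with vehicle and 0.459, 0.0460 and 0.504 CPM with melatonin (-1.91 ± 0.87), without overlap. The other 9 tested transferases (Gstk1, Gstm4, Gstm5, Gstm6, Gstm7, Gsto1, Gsto2, Gstt1 and Gstz1) ran from -0.43 for Gstz1 to 1.27 for Gstk1 with age and from -1.22 for Gstk1 to 0.66 for Gstm6 with melatonin.

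Some transferases have near-identical copies, so their split is uncertain. Estimated counts were not whole in at least 11 of 12 libraries for Gstp1, Gstp2, Gstm1, Gstm2, Gstm4 and Gstz1, as happens where reads are shared between genes or transcripts. The same held in all 12 libraries for Prdx5, Slc7a11, Sod2 and Txnrd2, whose levels carry that uncertainty too. Counts of G6pdx were not whole in 9 of 12 libraries, so the uncertainty applies to it as well. Gstp1 had 2019 to 4413 counts in a library and its copy Gstp2 had 0 to 55, with 50.6 and 55.0 in old 2 and old 1 and 15.5 or fewer in the other 10. Gstp2 was not tested, nor were Gsta1, Gsta2, Gstm3, Gstp3 and Gstt4, which had at most 11, 2.04, 1.18, 2 and 3 counts in a library.

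Scaled for length, as deposited TPM (transcript shares scaled to a common total), the median over 12 libraries was highest for Gpx4, Gpx1, Prdx1, Gstp1 and Sod1, at 862, 753, 641, 581 and 526 TPM. Ranges over libraries overlapped between neighbours in this order, such as 719 to 1164 TPM for Gpx4 and 490.2 to 1127 TPM for Gpx1. Prdx6 was at 211 TPM, Cat at 141, Nfe2l2 at 137 and Keap1 at 49.3 TPM. Slc7a11 had 2.31 TPM and was the lowest of the glutathione supply genes.

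In the matched libraries of the 2 tables, the tested members lay close to each other. Between 43 and 50 of 51 were within 1.5-fold in each of the 6 matches, and the median ratio was 1.05 to 1.13. The match of old 5 with old 9 was the loosest, where Gpx3 was 1072 and 2602 CPM and Prdx6 238 and 403 CPM. Between melatonin 1 and young 2, Gpx3 was 66.2 and 139 CPM, the widest ratio of that match at 2.10. Prdx6 was 111 and 121 CPM there, 80.2 and 73.2 CPM in melatonin 3 and young 4, and 111 and 102 CPM in melatonin 5 and young 5. These matches were chosen on the other genes and have no test here.

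**Figure D5:**
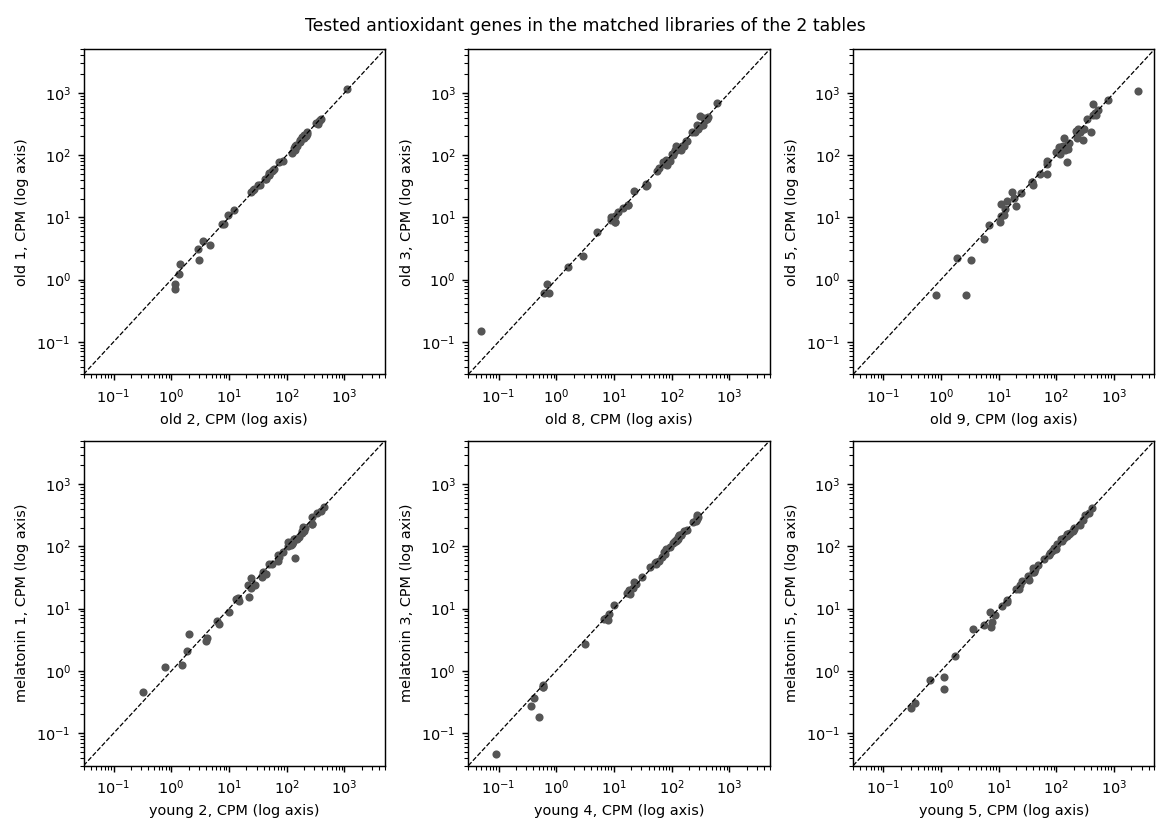
CPM of the 51 tested antioxidant genes in each library of the melatonin table (y axis) against the library of the age table it matched (x axis), on log axes, where the dashed line marks equal levels. Points follow the line in all 6 panels, those that pair melatonin with young included, with the widest scatter between old 5 and old 9.

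Other genes of the pathway, listed by role and not by their change, also had 0 calls. Of 28 other NRF2 targets and regulators, 25 were higher and 3 lower in old libraries, 8 and 1 of them at an unadjusted p under 0.05, with 0 called and a median log2 change of 0.48. Of all genes 47.7% were higher, and 8.81% and 4.95% were higher and lower at that p. The heme oxygenase gene Hmox1 was 406, 311 and 142 CPM in young and 379, 1821 and 1329 CPM in old libraries (2.06 ± 0.67), with young 2 above old 2. The biliverdin reductase genes Blvrb and Blvra differed by 2.22 ± 0.63 and 1.57 ± 0.47, and Taldo1, of the pentose phosphate pathway, by 1.40 ± 0.39. Without the macrophage-rich libraries these 4 had 0.40, 0.94, 0.29 and 0.33. With melatonin 23 of the 28 were lower and 5 higher, 9 and 1 at an unadjusted p under 0.05 (9.45% and 4.76% of all genes), with 0 called and a median of -0.51. Blvrb, Taldo1, the aldehyde dehydrogenase Aldh3a1 and the growth inhibitor Osgin1 had -2.35 ± 0.59, -1.34 ± 0.37, -4.07 ± 1.15 and -0.82 ± 0.24.

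Of 26 tested genes for other glutathione and thiol steps, 17 were higher and 9 lower with age, 3 and 2 at an unadjusted p under 0.05, beside 8.81% and 4.95% of all genes. With melatonin 12 were higher and 14 lower, 1 and 3 at that p, beside 4.76% and 9.45% of all genes, and 0 were called in either comparison. Chac1, which degrades glutathione, was lower in old libraries, at 28.5, 10.9 and 40.2 CPM in young and 7.82, 10.3 and 8.16 CPM in old, without overlap (-1.59 ± 0.50). In the melatonin table it was 8.59, 10.3 and 4.02 CPM with vehicle and 26.7, 12.5 and 36.6 CPM with melatonin (1.71 ± 0.53), and without the macrophage-rich libraries the changes were -1.76 and 1.55. The methionine sulfoxide reductase gene Msrb1, the thioredoxin-like gene Txndc17 and the transpeptidase Ggt5 differed by 1.26 ± 0.31, 0.62 ± 0.18 and 2.65 ± 0.81 with age and by -1.29 ± 0.30, -0.52 ± 0.20 and -2.49 ± 0.94 with melatonin. Of 11 tested oxidant sources, 10 were higher with age, 6 at an unadjusted p under 0.05 (8.81% of all genes), and 9 were lower with melatonin, 6 at that p (9.45% of all genes), with 0 called. The phagocyte NADPH oxidase genes Ncf1 and Ncf4 and the GTPase gene Rac2 were among those of smallest p in both. Ncf1 was 16.2, 367 and 328 CPM in old vehicle 2, 8 and 9 and 18.6, 376 and 339 CPM in 1, 3 and 5, against 14.8, 1.36 and 2.5 CPM in young libraries and 13.9, 2.05 and 3.22 CPM in those labelled melatonin. Its high values were those of the macrophage-rich libraries.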

How the data were processed

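RNA was harvested with Trizol and libraries followed a BGISEQ500 protocol, per the labels. Both tables hold 18908 genes. The deposited estimated counts are unscaled, and 67.7% lay within 0.005 of a whole number. The authors' FPKM columns correct for gene length and depth and were not used here. The authors' TPM columns, which share a common total, serve to compare levels between genes. RSEM, Bowtie2, BWA and mm39 are named in the submitters' processing notes with no roles or versions. Annotation and strand setting were not given in the sources used here, so genes that overlap on opposite strands cannot be told apart.

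Estimated counts were rounded, and genes in each table were kept by filterByExpr (minimum count 10, minimum total 15). Each table was tested alone by edgeR's quasi-likelihood test (edgeR 4.0.16, R 4.3.3) after TMM scaling, with Benjamini-Hochberg adjusted p over all genes tested and a call under 0.05. The fit was tested on simulated data. Log2 changes carry a standard error (SE) and run old minus young or melatonin minus vehicle. CPM levels use TMM over 12 libraries, where 3 counts equal 0.136 to 0.152 CPM, a limit that covers counting error only. Marker lists and members were chosen with earlier results of these data known. Values in every library are given for 13 members always named and for the 2 of smallest p in each role group and comparison, 24 in all, and for other pathway lists the 4 of smallest p are named, except 1 gene that is not reported here. Library values of Gstt2, Mgst2 and Sod3 were chosen after they were seen. Alternatives were DESeq2 1.42.0, no filter, an adjusted p under 0.1, libraries left out, and the replicate number as a block.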

Additional observations from a re-analysis of the deposited data

Results flagged for a closer look

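Gpx3 in old vehicle replicate 9 stood at 2602 CPM, far above the other 5 old vehicle libraries, whose values were 371 to 1138 CPM. The gap to the next library exceeded the critical value for 6 samples in Dixon's test. It was the only one of the 24 genes with values in every library to do so, and chance gives such a gap in about 1 of 20 groups. The 6 libraries form 3 matched pairs, so they are not 6 unlike samples. The library that matches replicate 9, old vehicle replicate 5, was at 1072 CPM.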

How the results depend on the processing

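No member was called in edgeR at an adjusted p under 0.05 or 0.1, while DESeq2 called 6 members with age and 5 with melatonin. As single libraries were left out, calls stayed at 0 with age and ran from 0 to 4 with melatonin, the 4 being Cat, G6pdx, Gclm and Pgd without old vehicle replicate 1, where 602 of 13914 genes were called. Members at an unadjusted p under 0.05 ran from 5 (without old vehicle replicate 9) to 14 higher and from 0 to 2 lower with age (14 and 2 without old vehicle replicate 2), and from 5 (without old vehicle replicate 5) to 15 lower (without old vehicle replicate 1) and from 0 to 1 higher with melatonin. The share of all genes moved as well, from 4.97% to 13.1% higher with age and from 5.43% to 13.9% lower with melatonin in those same fits. The age median ran from 0.21 (without old vehicle replicate 9) to 0.42, and the melatonin median ran from -0.53 (without melatonin replicate 3) to -0.23. Without the macrophage-rich libraries, which leaves a lone old vehicle library, the medians were 0.20 with age and -0.24 with melatonin. With the replicate block, 0 members were called. At an unadjusted p under 0.05, 10 were then lower and 1 was higher, beside 4.36% and 3.99% of all genes. Deviations from the group means correlated at -0.25, 0.10 and -0.020 for equal replicate numbers, and at -0.25 to 0.31 for unequal ones. With 3 libraries per group this cannot decide whether a number marks an animal, so pairing remains unknown. No paired analysis was made for the age table, since the labels link no young library to an old one.

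Among the 24 genes with values in every library, the direction of 6 turned in some of these fits, and the cause was not tested. Other tested members turned as well. With age, as single libraries were left out, Gss ran from -0.15 to 0.54 and Mgst2 from -1.82 to 0.31. The rest of this account covers the 6. Left-out libraries gave ranges of -0.0012 to 0.80 for Gclc and -0.38 to 0.58 for Slc7a11 with age, and of -0.021 to 0.11 for Keap1, -0.90 to 0.51 for Slc7a11 and -0.24 to 0.013 for Txn2 with melatonin. Without the macrophage-rich libraries, the age changes were -0.092 for Gclm, -0.11 for Gsr and -1.64 for Slc7a11, and the melatonin changes were 0.016 for Gclm, 0.089 for Gsr, -0.079 for Keap1 and 2.32 for Slc7a11. Those fits leave a lone vehicle library, assumed to vary like the other group. The 8 untested members failed the filter on low counts, and none passed 55.01 counts in any library.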
